A study of Mus musculus with 8 samples.

Results

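The nuclear oxidative phosphorylation genes described here are the 58 genes named by the Argonaute cluster table in a 3' UTR, coding sequence (CDS), 5' UTR or intron whose symbols follow the naming of respiratory chain and ATP synthase genes (Nduf followed by a, b, c, s or v, Sdha to Sdhd, Uqcr, Cox4 to Cox8 with a letter a to c, Atp5, Cycs and Cyc1). They are 58 of the 9962 genes that the table names in those regions. They hold 121 of its 70142 clusters (0.173%) and 3491 of its 1834586 reads (0.19%). The pattern takes in 6 named genes that are not counted as subunits, which are 5 complex I assembly factors (Atp5sl, which belongs to this group by function and not by its name, and Ndufaf2, Ndufaf4, Ndufaf5 and Ndufaf7) and Cox7a2l, a factor of supercomplex assembly. It misses Cox4i1, whose symbol has an i in place of the letter, and that gene has no cluster in the table.

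The data are from FLAG-Ago HITS-CLIP of mouse forebrain, in which ultraviolet light joins RNA to the Argonaute protein that carries microRNAs, the tagged protein is pulled down and the attached RNA is sequenced. In 5 libraries (numbered 1, 2a, 2b, 3a and 3b) the mice were Camk2a-cre with Rosa-Stopfl/fl-Flag-Ago2, so that Cre under the Camk2a promoter allowed the tagged Ago2 to be made from the Rosa locus in forebrain neurons that use that promoter. The 3 control libraries came from Rosa-Stopfl/fl-Flag-Ago2 mice without Cre, so all 8 libraries carry the same Flag-Ago2 allele and the tagged protein is made from a transgene. Mice of both groups were 8 to 14 weeks old, and the libraries were made to look for microRNA target sites in these neurons. Their titles are numbered from 1 to 3 in both groups. The labels used here do not say what a shared number, or the letters a and b, stand for.

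The table gives 1 read count per cluster for the whole study, with a lowest value of 10 reads. It has 0 columns for single libraries, so the groups cannot be compared, the background in control mice is unknown for each value, and there is no replicate spread and no test. Intervals given with shares are 95% Wilson intervals. They cover counting error only and take clusters as independent, which clusters of 1 gene are not. Reads were amplified in 15 PCR cycles, and molecular identifiers are not named in the sources used here. Among markers of the labelled cell type, all 4 excitatory forebrain neuron genes have exonic reads (34 to 618, with Camk2a at 618). Markers of other cells are present as well: all 4 astrocyte genes (80 to 1105 reads, the highest being Slc1a2), 3 of 4 oligodendrocyte genes (up to 298, with Mog listed in an intron only), 3 of 4 microglia genes (up to 33), 2 of 4 interneuron genes and both endothelial genes. Of the 2 red blood cell genes, Hba-a1 had 303 exonic reads and Hbb-bs had no cluster. The oxidative phosphorylation genes are not markers of any of these cell types, and which cells gave their reads was not tested. In bulk tissue, fewer cells of a type and less RNA per cell cannot be told apart.

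Oxidative phosphorylation passes electrons from NADH and succinate through complexes I to IV of the inner mitochondrial membrane to oxygen, pumps protons on the way, and lets them return through complex V, the ATP synthase. Nearly all subunits are encoded in the nucleus as short, abundant mRNAs, while a small set is encoded by mitochondrial DNA. Neurons depend on this pathway for the ATP that ion pumping and synaptic transmission use. MicroRNAs pair with mRNAs mainly through the seed at their 5' end, and a number of them, miR-210 and miR-338 among them, have been described as acting on respiratory chain mRNAs.

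The sequences below show microRNAs whose seed matches recur in the clusters of these genes, or that have been described for this pathway. The capitals mark the seed, bases 2 to 8 from the 5' end (mature sequences from RefSeq, build GRCm38.p6).
let-7a-5p: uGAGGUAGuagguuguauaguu
miR-7a-5p: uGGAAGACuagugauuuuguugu
miR-27b-3p: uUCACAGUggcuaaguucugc
miR-128-3p: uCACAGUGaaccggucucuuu
miR-125b-5p: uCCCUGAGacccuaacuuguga
miR-210-3p: cUGUGCGUgugacagcggcuga
miR-338-3p: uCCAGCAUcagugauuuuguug
The seeds of miR-27b-3p and miR-128-3p hold the same letters shifted by 1 base, so that a site can match both.

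The matching sites were located on the spliced transcripts (GENCODE M21 on mm10). A 6mer pairs with bases 2 to 7 of the microRNA, a 7mer-m8 also with base 8, a 7mer-A1 has an A opposite base 1, and an 8mer has both. The 3' UTR sites shown come from the deepest 3' UTR clusters with a site located in the 3' UTR itself (the one of Ndufa2 is not shown) and from the cluster with the only 8mer in a 3' UTR. The Ndufa4 site and the CDS sites were chosen after their values were seen, to show 8mers in deep clusters and the miR-210 matches. Capitals mark the bases that pair, with the A opposite base 1 where present.
Cox6a1 miR-7, 3' UTR, 7mer-A1: ccattactctgaTCTTCCAtcccttctgct
Cox6a1 miR-7, CDS of the same cluster, 7mer-A1: gtaaccatacccTCTTCCAcaaccctcatg
Atp5b miR-9, 3' UTR, 6mer: gagggactccagCCAAAGgcagcactgcaa
Uqcr11 miR-125, 3' UTR, 8mer: ggtctgcaccgCTCAGGGAgcttccatgtt
Ndufa4 miR-210, 3' UTR, 7mer-A1: tcagaagccatcCGCACAAttttccactta
Uqcrh miR-128, CDS, 8mer: cagtgagagagCACTGTGAacagctggaga
Atp5d miR-128, CDS, 8mer: agcggctccgtCACTGTGAatgccgactcc
Ndufb7 let-7, CDS, 8mer: tactgtgcccaCTACCTCAtccggctgctg
Uqcrc1 let-7, CDS, 8mer: gacttgactgaCTACCTCAacagacattac
Sdhb miR-210, CDS, 8mer: gagtaacttctACGCACAAtacaaatccat
The windows of Cox6a1 lie on the minus strand at chr5:115345692-115345721 and chr5:115345878-115345907. Those of Atp5b, Uqcr11 and Ndufa4 are at chr10:128090118-128090147 (plus), chr10:80403056-80403085 (minus) and chr6:11900464-11900493 (minus). The Uqcrh window is at chr4:116069982-116070011 (minus) and the Atp5d window at chr10:80145224-80145253 (plus). The let-7 windows are at chr8:83570889-83570918 (Ndufb7) and chr9:108945376-108945405 (Uqcrc1), and the Sdhb window at chr4:140973669-140973698, all on the plus strand.

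Clusters in exons were found for a larger share of these genes than of protein-coding genes in general, and most were in coding sequence. Of 93 annotated protein-coding genes that fit the naming pattern, 49 (52.7%, interval 42.6 to 62.5%) had an exonic cluster, against 35.9% of all 21829 protein-coding genes. For CDS clusters the count was 38 of 93 (40.9%, interval 31.4 to 51.0%), against 27.0% of all protein-coding genes. For 3' UTR clusters it was 18 of 93 (19.4%, interval 12.6 to 28.5%), close to the 21.5% of all protein-coding genes. Their mRNAs are short, with a median mature length of 875 bases against 2569 for all protein-coding genes, and a median 3' UTR of 186 against 769 bases. Among genes of their own length range (529.4 to 1999.2 bases, the 10th to the 90th percentile of the 93), 39 of 73 (53.4%, interval 42.1 to 64.4%) had an exonic cluster, against 17.7% of the 7468 protein-coding genes in that range. In the same range 13 of 73 (17.8%, interval 10.7 to 28.1%) had a 3' UTR cluster, against 8.30%. The cytosolic ribosomal protein genes, another family of short and widely used mRNAs, had shares within these intervals: 45 of 85 (52.9%) with an exonic cluster, 40.0% with a CDS cluster and 20.0% with a 3' UTR cluster. The level of each mRNA in these cells was not measured in this table.

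Clusters of these genes were not deeper than others in their middle, but more of them lay in the upper range. The 86 exonic clusters had a median of 22 reads (quartiles 13 and 40.5), against 21 in other genes, 20 in other genes of the same length range and 20 in ribosomal protein genes. Exonic clusters of 50 or more reads were 17 of 86 (19.8%, interval 12.7 to 29.4%), against 11.3% in other genes, 9.60% in other genes of the length range and 13.0% in ribosomal protein genes, which is inside the interval. Per gene, the 49 annotated members with an exonic cluster had a median of 39 exonic reads (11 to 209), below the 49 of the 7784 other protein-coding genes with one. Per kb of mature transcript the order was the opposite. The medians were 35.9 reads for these genes, 26.5 for the 45 ribosomal protein genes and 14.8 for the others. Only genes with a cluster of at least 10 reads enter these medians, which by construction sets a higher lowest value per kb for a shorter mRNA. The 49 members had a median mature length of 908 bases, against 2569 for all protein-coding genes. The value per kb was not taken within the length range. A single exonic cluster covered 57.1% of the 49 members, against 37.3% of other genes and 62.2% of ribosomal protein genes.

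**Figure D1:**
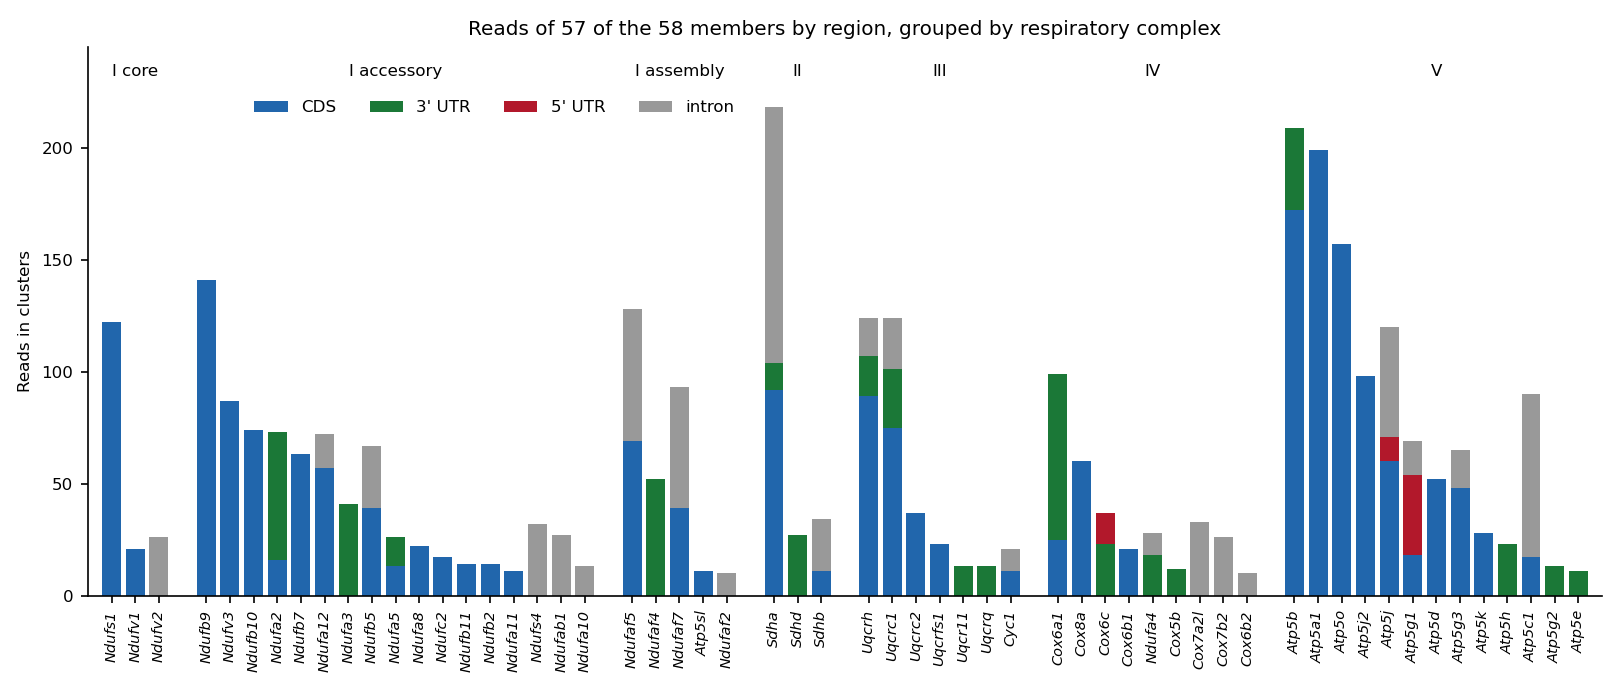
Reads in clusters of 57 of the 58 genes (vertical axis, number of reads summed over all libraries), stacked by region and grouped by complex; within a group, genes are ordered by exonic reads. Sdha is the tallest bar because of 114 intron reads, Atp5b has the most exonic reads (209), and 8 genes have intron reads only.

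Complex I, which takes electrons from NADH, had 26 of its 45 genes named, with 1063 exonic reads. Of its 7 core subunits encoded in the nucleus, which carry the redox chemistry, 3 had an exonic cluster. Ndufs1, an iron-sulfur subunit of the NADH-oxidizing arm, had 122 exonic reads, in CDS clusters of 110 and 12 reads. The deeper one covers exon 10 of 19 at chr1:63159737-63159874 on the minus strand, with 83.3% of its bases in that exon. Ndufv1, the subunit that binds NADH, had 21 exonic reads in 1 CDS cluster.

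Among the 29 accessory subunits of complex I, which surround the core, 14 had an exonic cluster, with 11 to 141 reads per gene (median 40). Ndufb9 led with 141 reads, 131 of them in a cluster on exon 3 of 4 at chr15:58937388-58937498 (plus strand). Ndufv3 followed with 87 reads in 1 cluster at chr17:31531080-31531235 (plus strand), on its last exon and ahead of the stop codon. Both lie in coding sequence, as do clusters in 13 of the 14 genes. Ndufa2 and Ndufa3 were the accessory subunits with most of their reads in the 3' UTR, with 57 of 73 and 41 of 41 exonic reads. Ndufb7 had 63 reads in a single CDS cluster on exon 2 of 3 at chr8:83570727-83570975, which holds the let-7 8mer shown above.

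Of the 9 assembly factors, which help build complex I and are not part of it, 4 had an exonic cluster, with a median of 45.5 exonic reads when the named Atp5sl is counted among them. Ndufaf5 had 69 exonic reads in CDS clusters of 59 and 10 reads, and 59 more in 4 intron clusters. Ndufaf4 had 52 reads in 3 clusters of 27, 13 and 12 reads, all within its 3' UTR. Its annotated 3' UTR of 3026 bases is among the longest of the family, and its clusters lie 324.5 to 2141 bases after the stop codon. None of the 3 has a seed match of any of the 30 microRNA families examined.

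Complex II, which oxidizes succinate and belongs to the citric acid cycle too, had 3 of 4 genes with an exonic cluster. Sdha, the flavoprotein, had 104 exonic reads in 6 clusters of 27, 27, 15, 13, 12 and 10 reads, 5 in CDS and 1 in the 3' UTR. It also had the deepest intron cluster of the family, with 114 reads at chr13:74333963-74334192, 106 bases from the nearest exon. That cluster and 3 of the CDS clusters carry a circRNA identifier in the table, and without such clusters Sdha has 37 exonic reads. Sdhd, a membrane anchor subunit, had 27 reads in 1 cluster in its 3' UTR, and Sdhb, the iron-sulfur subunit, had 11. Sdhc was not named.

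Complex III and its electron carrier cytochrome c had 7 of 10 genes with an exonic cluster. Uqcrh, the hinge protein, had exonic reads in a pair of clusters, with 89 in a CDS cluster on exon 3 of 4 at chr4:116069840-116070040 and 18 in the 3' UTR. Uqcrc1, a core protein of the complex, had 101 reads in clusters of 53, 26 and 22 reads, the second in the 3' UTR and the others in CDS. Cyc1, the cytochrome that reduces cytochrome c, had 11 exonic reads, and Cycs, cytochrome c itself, was not named.

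Complex IV, cytochrome c oxidase, had exonic clusters in 6 of its 18 genes, or 6 of 16 when Cox7a2l and Ndufa4l2 are left out as not being counted as subunits. Cox6a1 had 99 exonic reads, of which 74 were in a cluster over the end of the coding sequence and the 3' UTR (chr5:115345640-115345921, minus strand, exon 3 of 3) and 25 in a CDS cluster. It is the deepest 3' UTR cluster of the family. Cox8a had 60 reads in 1 cluster on exon 1 of 2 at chr19:7217383-7217556. Cox5a, Cox7a2, Cox7b and Cox7c, subunits made in most tissues, were not named, nor were Cox6a2, Cox7a1 and Cox8b, the forms known from heart and skeletal muscle.

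Complex V, the ATP synthase, had exonic clusters in 13 of 17 genes, with 980 exonic reads. Atp5b, the catalytic beta subunit, had 209 exonic reads in 7 clusters of 51, 37, 37, 32, 26, 15 and 11 reads, which is more reads than 90.4% of protein-coding genes with an exonic cluster. Of these clusters 6 are in CDS and 1, with 37 reads, runs over the stop codon into the 3' UTR. Without its clusters that carry a circRNA identifier, Atp5b has 114 reads. Atp5a1, the alpha subunit, had 199 reads in 4 CDS clusters of 86, 52, 44 and 17 reads. Atp5o, the stalk subunit that confers oligomycin sensitivity, had 157 reads, 138 of them in the deepest cluster of the family, on exon 3 of 7 at chr16:91928873-91929011. Atp5j2, a subunit of the membrane part, had 98 reads in CDS clusters of 56 and 42. The 3 genes for the identical c subunit of the proton ring differed in the regions assigned to their exonic clusters: Atp5g1 had 36 reads in the 5' UTR and 18 in CDS, Atp5g3 had 48 in CDS, and Atp5g2 had 13 in the 3' UTR. The 5' UTR cluster of Atp5g1 and the CDS cluster of Atp5g3 also name an intron, with 26.0% and 65.9% of their bases in exons.

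Over the whole family, 36 annotated genes that fit the naming pattern were not named (such as Atp5f1, Atp5l, Atp5mpl and Atp5s, the first in alphabetical order). A cluster needs 10 reads to be listed, so fewer reads on a gene would not be seen. Another 8 were named in introns only, led by Cox7a2l with 33 reads, Ndufs4 with 32, Ndufab1 with 27, and Ndufv2 and Cox7b2 with 26 each. Those with an exonic cluster were longer, with a median mature length of 908 against 772 bases and a median coding length of 456 against 346.5 bases.

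**Figure D2:**
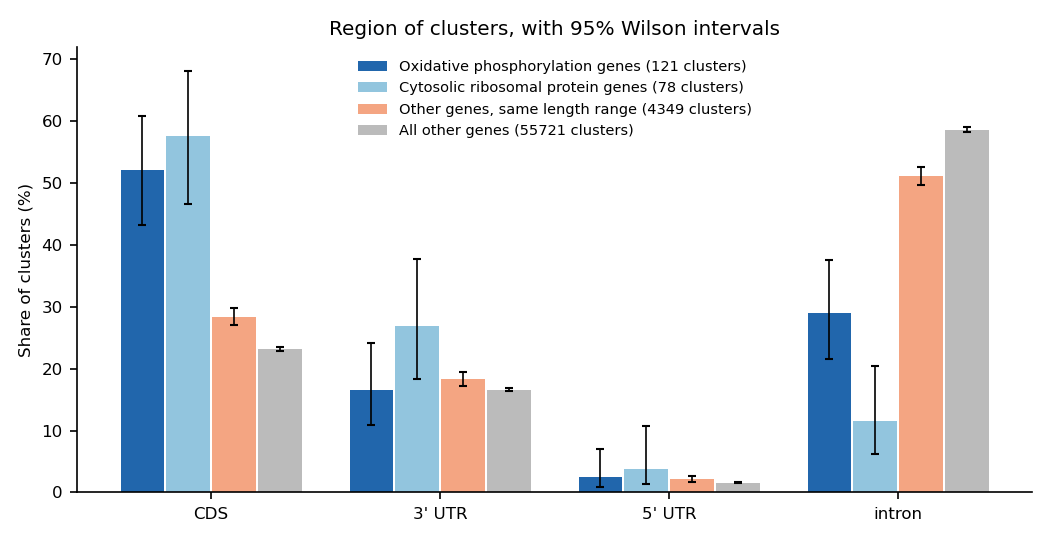
Share of clusters in each region (vertical axis, percent) for the oxidative phosphorylation genes, ribosomal protein genes, other genes of the same length range and all other genes; bars are shares and lines are 95% Wilson intervals. CDS holds 52.1% of the clusters of oxidative phosphorylation genes and 23.1% of those of all other genes, while the 3' UTR share is 16.5% against 16.6%.

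With each cluster given to 1 region, the 3' UTR first, coding sequence held the largest number of clusters. The order depends on that choice: counting every region a cluster names, introns were named by 84.3% of the clusters and CDS by 62.0%. Coding sequence was assigned 63 of 121 clusters (52.1%, interval 43.2 to 60.8%), against 23.1% in other genes and 28.4% in other genes of the length range. By reads its share was 62.8%, against 27.4% in other genes and 31.7% in other genes of the length range. All 121 clusters enter here, also those of members outside that range. The 3' UTR held 20 clusters (16.5%, interval 11.0 to 24.2%), the 5' UTR 3 (2.48%) and introns 35 (28.9%, interval 21.6 to 37.6%). In other genes introns held 58.6% of clusters. Among exonic clusters alone, 20 of 86 (23.3%, interval 15.6 to 33.2%) were in the 3' UTR, below the 40.2% of other genes and the 37.5% of other genes of the length range. Ribosomal protein genes had 26.9% of clusters in the 3' UTR, 57.7% in CDS and 11.5% in introns, a smaller intron share than the oxidative phosphorylation genes.

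Per kb of annotated sequence, in genes with an exonic cluster, the oxidative phosphorylation genes had 1.88 CDS clusters and 0.883 3' UTR clusters. Other genes of the length range had 1.17 and 1.39, and ribosomal protein genes 1.79 and 0.983, close to the oxidative phosphorylation genes. All other genes with an exonic cluster had 0.793 and 0.632. The oxidative phosphorylation genes and the ribosomal protein genes were not limited to the length range here. The 3' UTR value of the oxidative phosphorylation genes was thus below that of the length range and above that of all other genes. It rests on 3 long annotated 3' UTRs, those of Atp5g1 (4252 bases), Ndufb2 (4012) and Ndufaf4 (3026), whose mature transcripts are longer than the range. Leaving these genes out, which was decided after seeing the data, gives 1.50 3' UTR clusters per kb and leaves the CDS value at 1.89.

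**Figure D3:**
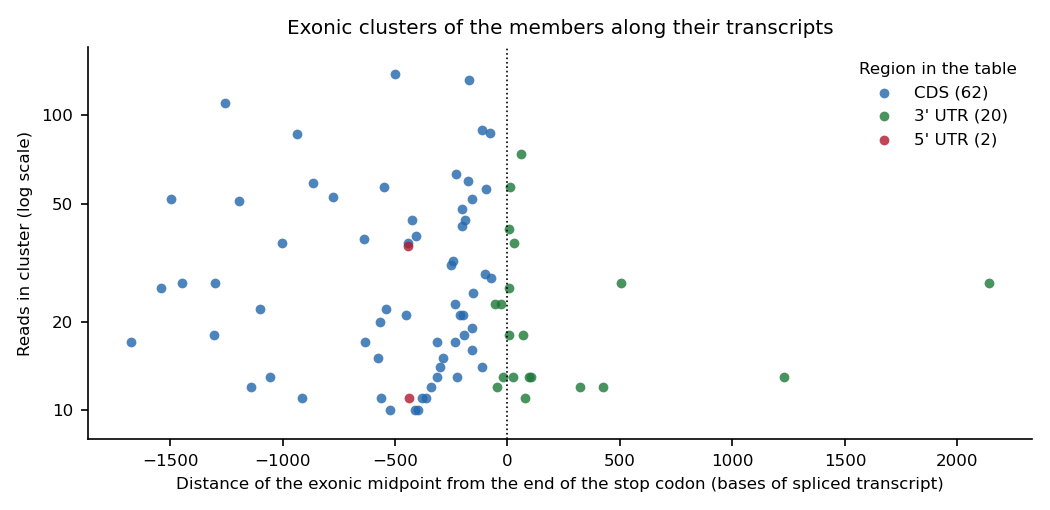
Reads in each placed exonic cluster (vertical axis, log scale) against the distance of its exonic midpoint from the end of the stop codon in bases of the spliced transcript (negative values are ahead of it); color gives the region assigned by the table. Clusters are spread over the coding sequences, and 15 of 20 3' UTR clusters lie within 150 bases of the stop codon. The median 3' UTR of members with an exonic cluster is only 189 bases, and other genes were not counted in this way.

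Placed on the main annotated transcript, 84 exonic clusters had a midpoint in an exon. The midpoint was in CDS for 63, in the 3' UTR for 16 and in the 5' UTR for 5. Across the coding sequence cut into 3 equal parts, 19 midpoints fell in the first, 27 in the middle and 17 in the last part. Near the stop codon, within 100 bases on either side, there were 18. No such count was made for other genes. Of the 20 clusters assigned to the 3' UTR, 12 (60.0%, interval 38.7 to 78.1%) also name CDS, against 15.7% in other genes, 33.0% in other genes of the length range and 57.1% in ribosomal protein genes. The cluster of Cox6a1 is 1 of these: it begins in the coding sequence and reaches the transcript's end.

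**Figure D4:**
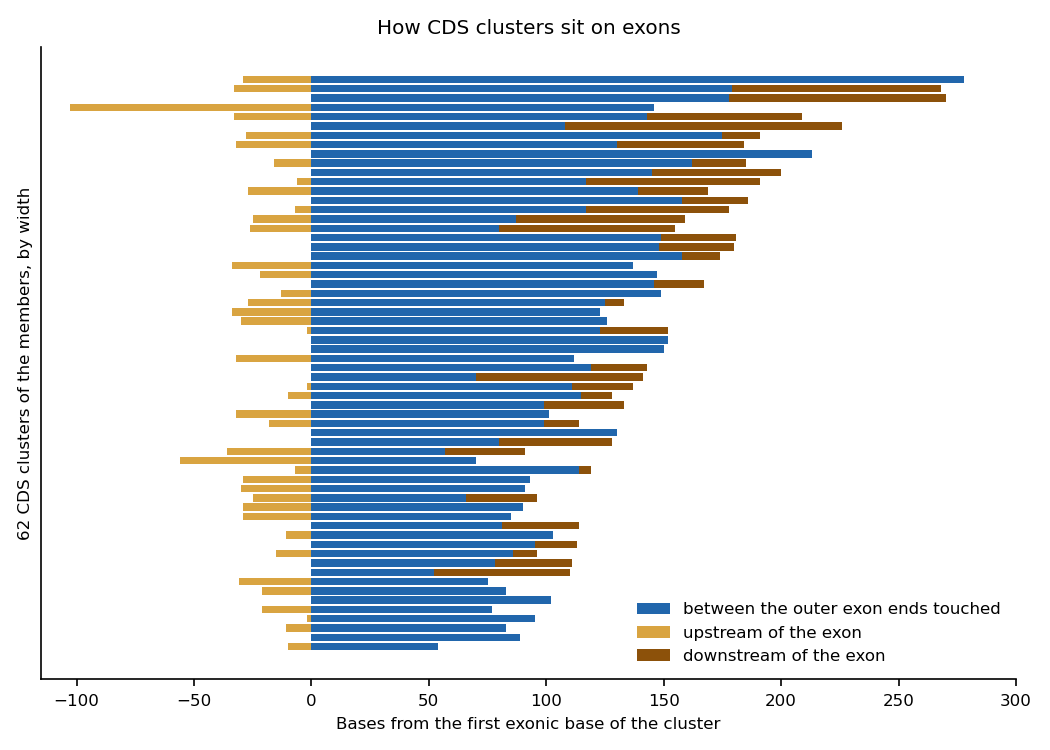
Each of 62 placed CDS clusters as a bar, sorted by width, with the horizontal axis in bases from its first exonic base; blue is the stretch between the outer exon ends it touches and orange and brown are the parts past them, upstream and downstream. In 56 of 62 clusters a part lies past an exon end.

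CDS clusters of these genes mostly reached past the exon into the intron. An intron was also named by 57 of 63 (90.5%, interval 80.7 to 95.6%), against 69.1% in other genes, 76.3% in other genes of the length range and 93.3% in ribosomal protein genes. Of 62 that could be placed, 56 ran past an exon end: 19 past both ends, 21 past the upstream end alone and 16 past the downstream end alone. All but 1 touched a single exon, and the median cluster had 78.0% of its bases in exons. Of 48 on an internal exon, 20 (41.7%, interval 28.9 to 55.7%) covered it whole, against 21.7% in other genes. In other genes of the length range the share was 30.1% and in ribosomal protein genes 31.4%, both inside the interval. Which reads make up the stretches past the exons was not tested, since the table gives no single reads. The 35 intron clusters lie in 23 genes. Of them 7 touch an exon of another transcript, 7 are within 200 bases of an exon and 21 are farther away, up to 7445 bases (Ndufs4). None overlaps an annotated small RNA gene.

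**Figure D5:**
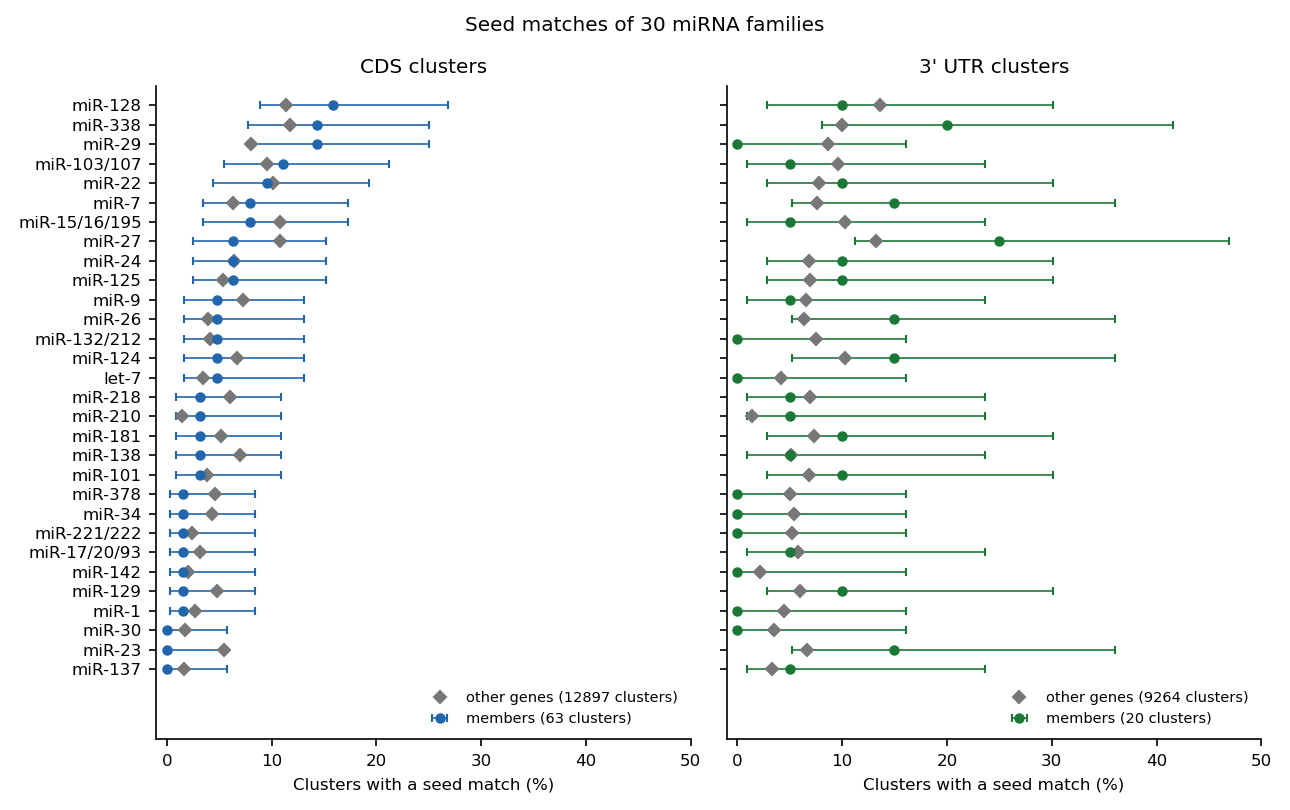
Share of clusters with at least 1 seed match (horizontal axis, percent) for 30 microRNA families in CDS clusters (left) and 3' UTR clusters (right); circles with lines are the oxidative phosphorylation genes with 95% Wilson intervals and diamonds are all other genes. In the 3' UTR the highest circles are miR-27 (25.0%) and miR-338 (20.0%), and in CDS miR-128 (15.9%); the others' value lies inside the interval for each of these.

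Seed matches were less frequent in the exonic clusters of these genes than in those of other genes, while the shares in 3' UTR clusters and in CDS clusters taken alone had intervals that hold the value of other genes. The table counts, for each microRNA, the matches to bases 2 to 7 of its sequence in a cluster. A match to at least 1 of 24 microRNA families of the brain was present in 56 of 86 exonic clusters (65.1%, interval 54.6 to 74.3%), against 74.9% in other genes and 79.7% in ribosomal protein genes. The value of other genes is just above that interval. CDS made up 63 of the 86 exonic clusters, against 12897 of 23052 in other genes, where CDS clusters had a match less often than 3' UTR clusters. The exonic share was not adjusted for this mix of regions and was not taken within the length range. In the 3' UTR a match was present in 15 of 20 3' UTR clusters (75.0%, interval 53.1 to 88.8%), against 79.2% in other genes. Per kb of 3' UTR cluster there were 11.6 matches, against 11.5. In CDS clusters the share was 39 of 63 (61.9%, interval 49.6 to 72.9%), against 72.6% in other genes, which is just inside the interval, and 80.0% in ribosomal protein genes, which is outside it. Per kb of CDS cluster there were 9.08 matches, against 10.5 in other genes. With 20 clusters in 3' UTRs, a single cluster is 5.0% of the count, so differences of this size cannot be read from them.

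By family, miR-27 matched 5 of the 20 3' UTR clusters (25.0%, interval 11.2 to 46.9%; others 13.3%), those of Ndufa2, Ndufa3, Ndufa4, Ndufa5 and Atp5h. The site itself is in the 3' UTR in Ndufa2 and Ndufa5. In Ndufa4 it is in the coding part of the cluster, ahead of the stop codon. In Ndufa3 and Atp5h the site takes in the stop codon itself, and the A opposite base 1 follows it. The family miR-338 matched 4 (20.0% against 10.0%), in Ndufa2, Atp5h, Sdha and Atp5e. The families miR-7, miR-23, miR-26 and miR-124 matched 3 each (15.0%, interval 5.24 to 36.0%), against 7.64%, 6.62%, 6.40% and 10.3% in other genes, all inside the interval. Families with no match in the 20 included let-7, miR-29 and miR-30, and a count of 0 in 20 clusters allows a share of up to 16.1% (upper Wilson bound). In CDS clusters miR-128 matched 10 of 63 (15.9%, interval 8.86 to 26.8%; others 11.4%), miR-29 matched 9 (14.3%; others 8.00%) and miR-338 matched 9 (14.3%; others 11.7%). The interval of miR-29 in CDS (7.70 to 25.0%) holds the value of other genes too.

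In all, 108 sites of the families with a mature sequence were located in 33 of the genes: 84 in CDS, 20 in the 3' UTR and 4 in the 5' UTR. Of these 13 were 8mers, 12 of them in CDS. CDS clusters span 9806 bases, intron parts included, and 3' UTR clusters 3349. Some of the CDS sites lie in clusters assigned to the 3' UTR, such as those of Atp5h and Cox5b. Sites were not located in other genes, so these counts have no share to be set against. In the deepest 3' UTR cluster, that of Cox6a1, the pair of miR-7 sites shown above lies on either side of the stop codon, 52 bases ahead of it and 134 after it. In the 89-read cluster of Uqcrh, the 8mer shown matches miR-128, and the overlapping 8mer for miR-27 starts 1 base further on. The same overlapping pair is at the upstream edge of the 52-read cluster of Atp5d, where a part of each site lies ahead of the cluster's first base. The let-7 8mers of Ndufb7 and Uqcrc1 are in CDS clusters of 63 and 53 reads, and the middle of the Ndufb7 site is 1 base from the middle of the exonic part of its cluster. The clusters of Ndufb9 (131 reads) and Ndufv3 (87 reads) have no match of any of the 30 families.

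The miR-210 and miR-338 matches can be set beside what is described for these microRNAs. Ndufa4 and Sdhd have been described as miR-210 targets, and Atp5g1 and Cox4 as miR-338 targets in axons. In these data miR-210 matched 3 of 86 exonic clusters (3.49%, interval 1.19 to 9.76%; others 1.43%), those of Ndufa4 (18 reads, 3' UTR), Uqcrc1 (53 reads, CDS) and Sdhb (11 reads, CDS). The Sdhd cluster of 27 reads had no match of any of the 30 families. The CDS cluster of Atp5g1 (18 reads) has 1 miR-338 6mer, 198 bases ahead of the stop codon, and its 5' UTR cluster of 36 reads has no match. Cox4i1 has no cluster.

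Other genes of the pathway, were taken as a list of 56: assembly factors, carriers, regulators of mitochondrial biogenesis and the complex IV subunits Cox4i1 and Cox4i2 (Cox7a2l is in both lists, and Micos10 has no entry in the annotation used). An exonic cluster was found for 19 of the 55 annotated ones (34.5%, interval 23.4 to 47.8%), near the 35.9% of all protein-coding genes. Another 11 had intron clusters only and 26 of the 56 had none. Slc25a4, which exchanges ADP for ATP across the inner membrane, had 155 exonic reads. Ppargc1a, a coactivator that drives mitochondrial biogenesis, had 147, all in its 3' UTR. Vdac1, the outer membrane channel, had 139. In this list the 3' UTR held 49.1% of exonic reads.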

How the data were processed

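Per the submitters' processing notes, BWA was the aligner and mm10 the build; how clusters were called, from which libraries and with what use of the controls is not given in the sources used here. In the deposited table each cluster has a read count, a whole number with no normalization named per the file headers, and there are 0 columns of single libraries.

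A cluster named in several regions was assigned to the 3' UTR first, then to CDS, then to the 5' UTR and last to an intron, and a gene was counted as covered in exons by any of the first 3. All 121 member clusters name 1 gene. Symbols were matched to GENCODE M21 (57 of 58 matched), whose main transcript gave lengths, exons and sites. The planned comparison of groups could not be run, so values are described without tests. Seed matches are the table's own columns for 30 of its 1281 microRNAs. A recount in the 17 wholly exonic clusters gave the same number in 425 of 425 pairs of cluster and family, and the site search was tested on simulated data (200 of 200 planted sites found). The rule for names took the 2 genes with most exonic reads per complex, the 10 with most in the family, the 10 deepest clusters, 5 intron-only genes, the first unnamed genes in the alphabet and the 5 most frequent seed families. 1 gene that this rule takes is not reported here. Other names were chosen after their values were seen. The members and lists were chosen with earlier results of these data known. Python 3.11.15, pandas 2.3.3 and statsmodels 0.14.6 were used.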

Additional observations from a re-analysis of the deposited data

Results flagged for a closer look

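Several signals lie in data that the comparisons above do not use. Each listed cluster has at least 10 reads, the lowest value in the table. A cluster of 28 reads lies opposite Ndufa3 at chr7:3619773-3619878 (minus strand), and 1 of 20 reads lies opposite Ndufs8 at chr19:3909149-3909249 (plus strand), a core subunit gene that has no sense cluster. A cluster of 11 reads lies on an annotated exon of Ndufs7, in its own strand, where the table names no gene of that strand. Annotated pseudogenes of the family hold clusters too: Ndufa11b has 77 reads, Uqcrh-ps1 has 55, and Ndufs6b and Cox6c2 have 27 each. Reads from a pseudogene and from its parent gene can be near-identical, and the assignment of such reads was not tested. The mitochondrial chromosome, whose genes encode the other subunits of complexes I, III, IV and V, holds 6466 reads in 45 clusters, to which the table attaches no gene names. Of these, 4092 are in 1 cluster.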

How the results depend on the processing

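No paired analysis was possible because the table has no columns for single libraries, so neither a replicate block nor leaving out a replicate could be run. With clusters of at least 20 reads, the share of genes with an exonic cluster was 37.6% (26.5% of all protein-coding genes), the median of exonic clusters 37.5 reads (32 in other genes), the CDS share 62.3% and the intron share 21.3%. Counting every region a cluster names gave 62.0% for CDS and 84.3% for introns, and counting reads gave 62.8% for CDS. In other units, which the intervals cannot be set against, the median was 15.1 reads per 100 bases of cluster (14.8 in other genes) and there were 11.65 seed matches per kb of 3' UTR cluster (11.5 in other genes). The values in the units reported lie outside the interval of the value reported, and 16 others lay inside. A higher read minimum raises a median and lowers a share of genes by its construction. Counting every region a cluster names cannot lower the share of a region, also by construction. For the other region shares the cause was not tested. Of 20 values for the 10 genes with most exonic reads, 17 stayed within counting error; those outside were Atp5b at 114 reads and Sdha at 37 reads without circRNA identifiers, and Sdha at 54 reads with clusters of at least 20. Without the 3 longest 3' UTRs, clusters per kb of 3' UTR went from 0.88 to 1.50. The lowest listed value is 10 reads per cluster, and the depth of each library is unknown.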

Other observations

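The mitochondrial chromosome's clusters can be set on its 13 protein-coding genes by position. Without the cluster of 4092 reads, which spans mt-Nd1 and mt-Nd2, 2374 reads remain. In the sense strand mt-Co1, mt-Co2 and mt-Co3, the core subunits of complex IV, had 221, 219 and 220 reads, and mt-Atp6, of the proton channel, had 235. A cluster that spans neighboring genes counts for each of them. No sense cluster lies on mt-Nd3 or mt-Nd6. On mt-Co1 the opposite strand had 388 reads, more than the sense strand. The 3 mitochondrial genes of complex IV all have sense reads by position, as do the others of the 13 except mt-Nd3 and mt-Nd6. Of the 18 nuclear genes of complex IV, 6 have an exonic cluster. Those were counted by the gene names given to clusters, so the counts are not alike. No test of this was made.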
